A study of Mus musculus with 10 samples.

Results

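Liver RNA-seq was examined for the 8 genes of de novo NAD synthesis from tryptophan: Tdo2, Afmid, Kmo, Kynu, Haao, Acmsd, Qprt and Aadat. They were chosen by symbol for their place in the pathway, with earlier results of these data known, and all 8 of them are among the 41388 genes listed for each library. The mice were littermates of strain C57B/6J, 12 weeks of age, and each library is the liver of 1 mouse. WT Refed livers (n = 2) came from mice fasted for 22 h and refed for 2 h, WT Fasting livers (n = 3) from mice fasted for 24 h, and NAMPT LKO Fasting livers (n = 5) from mice lacking hepatocyte NAMPT that were fasted for 24 h. WT mice carry NAMPT fl/fl alleles without Cre, so the loxP-flanked gene is shared by all groups, and Albumin-cre deletes it only in hepatocytes of NAMPT LKO mice, leaving it intact in the other cells of the liver. The study's text describes the fed mice as random-fed and a shorter fast, whereas the times given here are those of the sample labels. There was no refed NAMPT LKO group, so refeeding and genotype were not crossed.

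Cells make NAD by salvage of nicotinamide, for which NAMPT is the rate-limiting enzyme, by the Preiss-Handler route from nicotinic acid, or de novo from tryptophan. The liver is the main site of the de novo pathway, in which tryptophan is opened by tryptophan 2,3-dioxygenase and carried through kynurenine and 3-hydroxyanthranilic acid to an unstable semialdehyde. That intermediate either closes spontaneously to quinolinic acid, which QPRT converts to nicotinic acid mononucleotide, or is decarboxylated by ACMSD and lost to oxidation. The comparison of NAMPT LKO Fasting with WT Fasting livers asks whether transcripts of this second source of NAD differ when hepatocyte salvage is removed, and the comparison of WT Fasting with WT Refed livers asks whether they differ with feeding state.

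The 5' flanks of 2 of the genes are shown because they lie before the most abundant transcripts described below: Tdo2 opens the pathway, and Haao makes the intermediate at which the pathway divides. Each is the 250 bases before the RefSeq start on GRCm38.p6, read 5' to 3' on the strand of the gene. The Tdo2 flank is chr3:81975729-81975978 and the Haao flank is chr17:83846791-83847040, both on the minus strand. Capitals mark TATAAA and ATTGG, the reverse complement of CCAAT, in the Tdo2 flank and TGTTCT, the reverse complement of AGAACA, in the Haao flank.
Tdo2: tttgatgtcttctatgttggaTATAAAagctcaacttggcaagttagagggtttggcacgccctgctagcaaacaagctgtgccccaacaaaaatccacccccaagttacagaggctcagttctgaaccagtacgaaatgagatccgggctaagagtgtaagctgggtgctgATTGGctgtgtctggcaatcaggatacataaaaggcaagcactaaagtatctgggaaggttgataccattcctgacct
Haao: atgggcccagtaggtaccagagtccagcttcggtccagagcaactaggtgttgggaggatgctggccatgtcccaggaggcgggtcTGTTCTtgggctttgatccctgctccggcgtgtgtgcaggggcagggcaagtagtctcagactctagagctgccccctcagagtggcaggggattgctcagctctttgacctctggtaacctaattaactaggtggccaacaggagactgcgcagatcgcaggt

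Such flanks were examined for 6 of the 8 genes, Tdo2, Afmid, Kmo, Haao, Qprt and Aadat, and Kynu had no entry. Searched on both strands, TATAAA was in the Tdo2 flank alone of the 6, at position -229 from the start, and was in 12.4% of 32850 flanks of the same length. CCAAT was likewise in the Tdo2 flank alone, on the opposite strand at position -78, against 33.9% of all flanks. AGAACA, the core of a glucocorticoid receptor site, was in the Haao flank alone, on the opposite strand at position -164, and was in 16.1% of all flanks. The letters TTGCNNAA, a form of the C/EBP site, were in none of the 6 flanks and in 9.56% of all flanks. Flanks of the Tdo2 and Kmo genes held 46.4% and 42.8% G and C, and those of the other 4 held 58.4% to 61.2%, against a median of 52.4% over all flanks. The Kmo flank (chr1:175631943-175632192) lies within the span of the counted gene given below. Parts of the Qprt (chr7:127122030-127122279) and Tdo2 flanks also lie within their counted genes.

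All values below start from the deposited count of uniquely aligned reads per gene. Values for a gene across livers are CPM, counts scaled to a common library total, after TMM scaling, which adjusts each library's total for a few very abundant genes, and values that set one gene against another are the deposited RPKM, which also divide by exonic length. Total counts ranged from 30603080 to 43434139 per library, and all 8 genes passed the filter, above 1 CPM in at least 1 library, that left 13444 genes for testing. Differences were tested by edgeR's quasi-likelihood test over those 13444 genes, and a gene was called at a Benjamini-Hochberg adjusted p of 0.05 or less. Nampt, the targeted gene, was at 62.1, 72.3 and 139 CPM in WT Fasting livers and at 11.6 to 15.1 CPM in the 5 NAMPT LKO Fasting livers, a log2 fold change of -2.81 (SE 0.22, adjusted p = 0.00102 by edgeR). All 8 hepatocyte markers examined were detected in every group, and summed Kupffer cell markers ranged from 221 to 273 CPM in WT Refed, 283 to 559 in WT Fasting and 201 to 427 in NAMPT LKO Fasting livers. Cholangiocyte markers summed to 15.0 to 22.1 CPM in the 5 WT livers and to 33.9 to 53.8 CPM in the 5 NAMPT LKO Fasting livers, without overlap. Much of this sum was 1 gene, Spp1, at 8.55 to 11.6 CPM in WT and 19.15 to 37.3 CPM in NAMPT LKO Fasting livers. Of 44 tested cell type markers, 4 were called by edgeR, all higher in NAMPT LKO Fasting than WT Refed livers, where 11.2% of tested genes were called. They were the cholangiocyte markers Spp1 and Epcam, the endothelial marker Kdr and the fibroblast marker Col1a1. Because these are whole livers, fewer cells of a type cannot be told apart from less RNA per cell. Library 5 of the NAMPT LKO Fasting group stood apart, with 21.1% of its counts on mitochondrial genes against 10.4% to 12.9% in the other 4, and its deviation from the mean of all livers followed the GC content of the gene (Spearman's rho -0.57 across 13369 genes, which are not independent). In the other libraries this rho ran from -0.032 in NAMPT LKO Fasting 2 to 0.27 in WT Fasting 3, and was 0.025 and 0.04 in WT Refed livers.

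The 8 transcripts spanned a wide range of levels per length. Tdo2 averaged 598 RPKM over the 10 livers and lay above 99.3% of tested genes, and Haao averaged 215 RPKM and lay above 98.1%. Aadat at 57.0 RPKM, Kmo at 45.0, Qprt at 34.5 and Kynu at 21.8 formed a middle group that lay above 86.1% to 93.6% of tested genes. Afmid averaged 9.20 RPKM and lay above 72.1% of tested genes, and Acmsd averaged 4.22 RPKM and lay above 54.5%, close to their median of 3.51 RPKM. Tdo2 exceeded Acmsd by 142-fold in mean RPKM. Ranges of neighbouring genes over the 10 livers did not overlap between Tdo2 (395 to 707 RPKM) and Haao (163 to 246), nor between Haao and Aadat (47.5 to 67.4). Ranges of Aadat and Kmo (41.7 to 49.4) overlapped, as did those of Kmo and Qprt (28.7 to 43.1) and of Qprt and Kynu (17.0 to 29.3). Kynu lay above Afmid (5.26 to 10.7), whose range overlapped that of Acmsd (2.60 to 7.51). The same pairs were also compared within each liver. Aadat exceeded Kmo in 10 of 10 livers, by 1.14-fold to 1.49-fold, and Afmid exceeded Acmsd in 10 of 10, by 1.34-fold to 3.86-fold. Kmo exceeded Qprt in 9 of 10, the exception being WT Fasting 3. Qprt exceeded Kynu in 10 of 10, although in NAMPT LKO Fasting 5 they were nearly equal (29.29 and 29.25 RPKM).

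**Figure D1:**
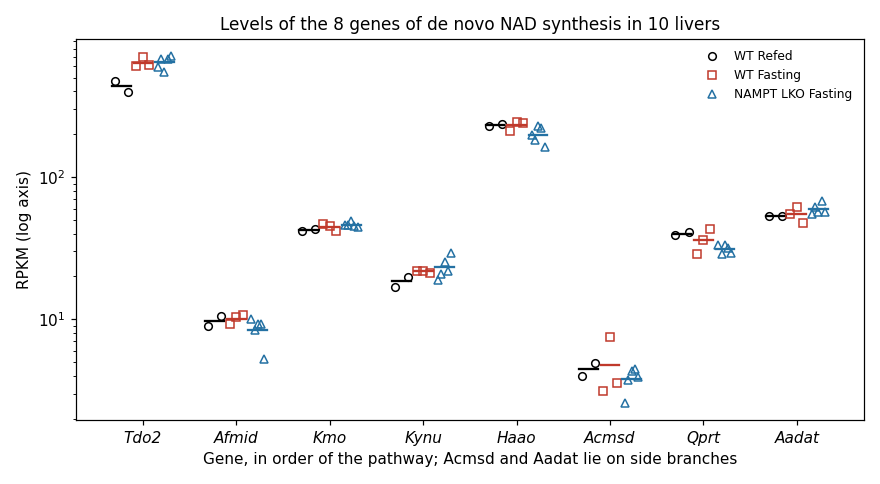
RPKM of each gene (log axis) in 2 WT Refed, 3 WT Fasting and 5 NAMPT LKO Fasting livers, with symbols for single livers and bars for group means. Tdo2 and Haao lie above every value of the other 6 genes in all 10 livers, and Acmsd has the lowest mean.

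Tdo2 (ENSMUSG00000028011, chr3:81957090-81975750, minus strand, GRCm38) encodes tryptophan 2,3-dioxygenase, the first and rate-limiting step. It was at 1551 and 1298 CPM in WT Refed livers, at 2042, 2470 and 2038 CPM in WT Fasting livers, and at 1999, 2299, 1805, 2326 and 2848 CPM in NAMPT LKO Fasting livers. Every fasted liver lay above both WT Refed livers, while the fasted genotypes overlapped. Tdo2 rose in NAMPT LKO Fasting relative to WT Refed livers, by 1.58-fold (95% interval 1.20 to 2.09, log2 fold change 0.66, SE 0.18, adjusted p = 0.0400 by edgeR). The WT Fasting value was 1.53-fold that of WT Refed (95% interval 1.14 to 2.06, log2 fold change 0.62, SE 0.20), which did not pass the threshold in edgeR (adjusted p = 0.0860). It passed with limma's voomWithQualityWeights (adjusted p = 0.00344) and with DESeq2 (adjusted p = 0.0237), and over 19 alternatives its adjusted p ranged from 0.00344 to 0.494. NAMPT LKO Fasting and WT Fasting livers differed by 1.03-fold (95% interval 0.817 to 1.31, adjusted p = 0.960 by edgeR), so a difference beyond this interval in either direction was not seen.

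The Tdo2 call in NAMPT LKO Fasting vs. WT Refed livers rests on few libraries. In edgeR the adjusted p was 0.145 without WT Refed 1, 0.355 without WT Refed 2, 0.0532 without WT Fasting 1, 0.0505 without WT Fasting 2, 0.0764 without NAMPT LKO Fasting 2 and 0.0679 without NAMPT LKO Fasting 4, with log2 fold changes from 0.55 to 0.80. Leaving out a WT Refed library leaves 1 in that group, whose spread is then assumed to be that of the others. In NAMPT LKO Fasting 5, where Tdo2 was highest, the transcript, of 39.6% GC against a median of 49.6%, stood 0.50 above its mean of all livers on the log2 scale, and 0.12 above it after the trend with GC content was removed. Without that library the log2 fold change from WT Refed was 0.57 (adjusted p = 0.0194 by edgeR), and that of WT Fasting vs. WT Refed was 0.62 (adjusted p = 0.0195).

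Afmid (ENSMUSG00000017718, chr11:117825924-117839908, plus strand) encodes arylformamidase, which removes the formyl group to give kynurenine. It was at 30.4 and 35.6 CPM in WT Refed, 32.1, 37.9 and 36.7 CPM in WT Fasting, and 34.7, 29.4, 32.0, 32.8 and 21.9 CPM in NAMPT LKO Fasting livers. The groups overlapped, and the lowest value was that of NAMPT LKO Fasting 5. The log2 fold change was 0.11 (SE 0.18, adjusted p = 0.776 by edgeR) in WT Fasting vs. WT Refed and -0.24 (SE 0.14, adjusted p = 0.837) in fasted NAMPT LKO vs. WT livers, the latter -0.14 without NAMPT LKO Fasting 5. Of its 3539 exonic bases, 83 are shared with Tk1 on the opposite strand, which held 5358 counts in all libraries together. A longer stretch of 1566 bases is shared with the annotated gene Gm20708 on the same strand, which was listed at 0 counts. Only unambiguous reads were counted, so reads from that stretch may be missing from the level of Afmid in all groups.

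Kmo (ENSMUSG00000039783, chr1:175620381-175662116, plus strand) encodes kynurenine 3-monooxygenase, the mitochondrial enzyme that makes 3-hydroxykynurenine. It was at 188 and 196 CPM in WT Refed, 217, 223 and 192 CPM in WT Fasting, and 214, 215, 226, 213 and 247 CPM in NAMPT LKO Fasting livers. All 5 NAMPT LKO Fasting livers lay above both WT Refed livers, but the difference did not pass the test (log2 fold change 0.21, SE 0.11, adjusted p = 0.260 by edgeR). Kmo varied least of the 8 genes, with a residual SD of 0.094 on the log2 scale, and 5.21% of tested genes varied less. The log2 fold change was 0.13 (95% interval -0.13 to 0.40) in WT Fasting vs. WT Refed and 0.08 (95% interval -0.13 to 0.29) in fasted NAMPT LKO vs. WT livers.

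Kynu (ENSMUSG00000026866, chr2:43555329-43682715, plus strand) encodes kynureninase, which yields 3-hydroxyanthranilic acid. It was at 99.8 and 118 CPM in WT Refed, 132, 140 and 127 CPM in WT Fasting, and 113, 126, 151, 133 and 211 CPM in NAMPT LKO Fasting livers. WT Fasting livers lay above WT Refed livers without overlap, at a log2 fold change of 0.29 (SE 0.23, adjusted p = 0.491 by edgeR). The highest value again was in NAMPT LKO Fasting 5, and the transcript is 40.7% GC. In NAMPT LKO Fasting vs. WT Refed livers the log2 fold change was 0.44 (SE 0.21, adjusted p = 0.220), or 0.27 without that library, and in fasted NAMPT LKO vs. WT livers it was 0.15 (SE 0.18, adjusted p = 0.882), or -0.02 without it.

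Haao (ENSMUSG00000000673, chr17:83831356-83846790, minus strand) encodes 3-hydroxyanthranilate 3,4-dioxygenase, which produces the semialdehyde at the branch point. It was at 264 and 278 CPM in WT Refed, 252, 311 and 283 CPM in WT Fasting, and 235, 222, 271, 268 and 234 CPM in NAMPT LKO Fasting livers. NAMPT LKO Fasting livers averaged 246 ± 22.2 CPM (SD, n = 5) and WT Fasting livers 282 ± 29.4 CPM (SD, n = 3), with overlap. This was the member with the lowest p in that comparison. Its log2 fold change was -0.20 (SE 0.11, 95% interval -0.44 to 0.04), at an unadjusted p of 0.0954 and an adjusted p of 0.837 by edgeR. Without 1 library in turn this fold change ran from -0.27 to -0.12, the latter without WT Fasting 2. With voomWithQualityWeights it was -0.24 (unadjusted p = 0.0350, adjusted p = 0.662). Between WT Fasting and WT Refed livers the log2 fold change was 0.06 (95% interval -0.24 to 0.36).

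Acmsd (ENSMUSG00000026348, chr1:127729413-127767978, plus strand) encodes the decarboxylase that diverts the semialdehyde from NAD synthesis. It was at 10.8 and 13.3 CPM in WT Refed, 8.74, 22.1 and 9.81 CPM in WT Fasting, and 7.19, 10.6, 11.8, 12.6 and 13.1 CPM in NAMPT LKO Fasting livers. WT Fasting 2 lay above all other livers and set the sign of both comparisons with its group. The log2 fold change was 0.16 (SE 0.37, adjusted p = 0.837 by edgeR) in WT Fasting vs. WT Refed, and -0.38 without WT Fasting 2. In fasted NAMPT LKO vs. WT livers it was -0.29 (SE 0.29, adjusted p = 0.865 by edgeR), and 0.25 without WT Fasting 2. Acmsd had the highest residual SD of the 8 genes, 0.46 on the log2 scale against a median of 0.23 over tested genes, and rests on 225 to 722 counts per library. Of its exonic bases, 3.32% are shared with the antisense gene 2900009J06Rik, which held 52 counts in all libraries together.

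Qprt (ENSMUSG00000030674, chr7:127107114-127122226, minus strand) encodes quinolinate phosphoribosyltransferase, which commits quinolinic acid to NAD. It was at 99.4 and 103 CPM in WT Refed, 74.6, 99.6 and 111 CPM in WT Fasting, and 86.3, 75.7, 85.6, 83.4 and 91.1 CPM in NAMPT LKO Fasting livers. All NAMPT LKO Fasting livers lay below both WT Refed livers and within the range of WT Fasting livers. The log2 fold change from WT Refed was -0.26 (SE 0.14, adjusted p = 0.267 by edgeR) in NAMPT LKO Fasting livers, which passed the threshold only with limma's voomWithQualityWeights among the alternatives run (-0.31, adjusted p = 0.0391, where 31.8% of tested genes were called). In fasted NAMPT LKO vs. WT livers it was -0.17 (SE 0.12, 95% interval -0.44 to 0.10), but -0.31 without WT Fasting 1 and -0.036 without WT Fasting 3. In WT Fasting vs. WT Refed livers it was -0.09 (SE 0.15).

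Aadat (ENSMUSG00000057228, chr8:60506124-60545677, plus strand) encodes a mitochondrial aminotransferase that turns kynurenine into kynurenic acid, a side product. It was at 90.8 and 91.5 CPM in WT Refed, 96.2, 114 and 82.1 CPM in WT Fasting, and 95.4, 109, 98.5, 120 and 120 CPM in NAMPT LKO Fasting livers. All NAMPT LKO Fasting livers lay above both WT Refed livers, at a log2 fold change of 0.25 (SE 0.14, adjusted p = 0.304 by edgeR). The log2 fold change was 0.10 (SE 0.16) in WT Fasting vs. WT Refed and 0.16 (SE 0.12) in fasted NAMPT LKO vs. WT livers, neither past the threshold. The latter was 0.28 without WT Fasting 2 and 0.056 without WT Fasting 3.

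**Figure D2:**
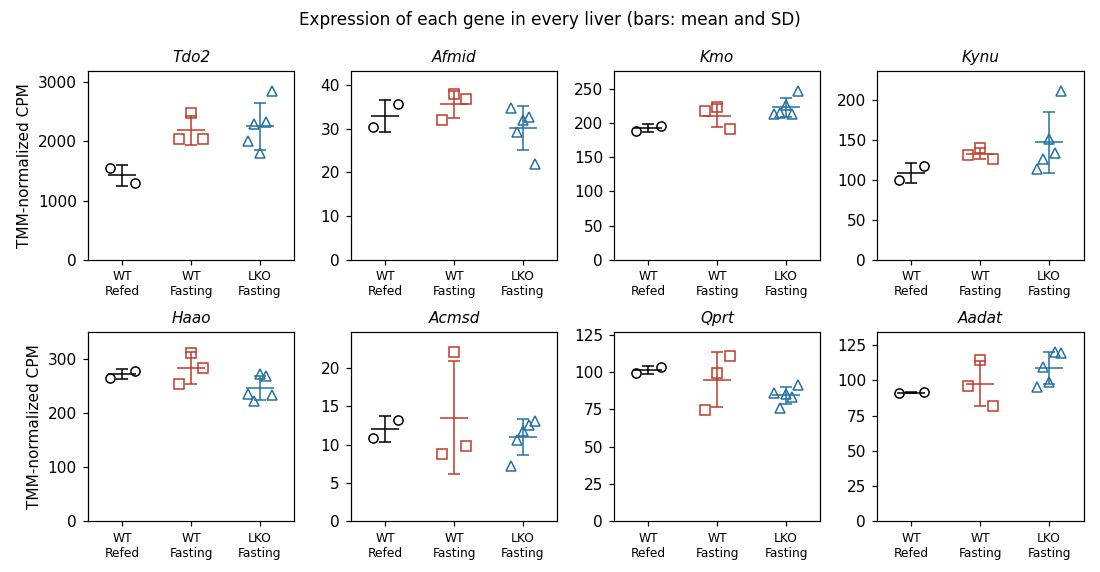
TMM-normalized CPM of each gene, one panel per gene with its own axis from 0, in 2 WT Refed (circles), 3 WT Fasting (squares) and 5 NAMPT LKO Fasting livers (triangles, LKO), with bars for the mean and SD. Tdo2 is higher in every fasted liver than in WT Refed livers, and 1 WT Fasting liver stands above all others for Acmsd.

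For the 8 genes together, no member passed the threshold in WT Fasting vs. WT Refed livers by edgeR, where 7.04% of the 13444 genes did (946 genes, 360 higher and 586 lower). At an unadjusted p under 0.05 the count was 1, Tdo2, against 22.3% of tested genes. Tdo2 was also the 1 member called with voomWithQualityWeights, where 24.8% of tested genes were called, and with DESeq2, where 12.2% were, so 1 of 8 did not stand above the background. With edgeR's exact test 0 members were called, against 8.87%. The 8 fold changes had a median of 0.12 on the log2 scale, 7 above 0 and 1 below, against a median of 0.04 over all genes. Their median size was 0.12, against 0.27 for all genes. Groups did not overlap for Tdo2 and Kynu, 2 of 8, against 49.7% of tested genes.

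Between fasted NAMPT LKO and WT livers, 0 of the 8 genes were called by edgeR, 0 had an unadjusted p under 0.05, and 0 were called by edgeR's exact test or DESeq2 (0.179% of tested genes each) or by voomWithQualityWeights (0.00744%). Across all genes 0.00744% were called by edgeR's quasi-likelihood test, which is Nampt alone, and 6.03% had an unadjusted p under 0.05. The log2 fold changes ran from -0.29 for Acmsd to 0.16 for Aadat, with 4 above 0, 4 below and a median size of 0.16 against 0.14 for all genes. Groups did not overlap for 0 of the 8 genes, against 3.99% of tested genes. The intervals bound what these livers could show: the narrowest was for Kmo, from 0.913-fold to 1.23-fold, and the widest for Acmsd, from 0.524-fold to 1.28-fold.

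In NAMPT LKO Fasting vs. WT Refed livers, 1 of 8 genes, Tdo2, was called, against 11.2% of tested genes, and it was also the 1 member at an unadjusted p under 0.05, against 26.1%. Groups did not overlap for Tdo2, Kmo and Aadat, which were higher, and for Qprt, which was lower, 4 of 8 against 33.5% of tested genes. This comparison differs in both genotype and feeding state, and it shares its WT Refed livers with the comparison of WT Fasting livers. Summed cholangiocyte markers were also higher in NAMPT LKO Fasting than in WT Refed livers without overlap (33.9 to 53.8 against 19.8 to 22.1 CPM), and their part in the differences of this comparison was not tested.

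**Figure D3:**
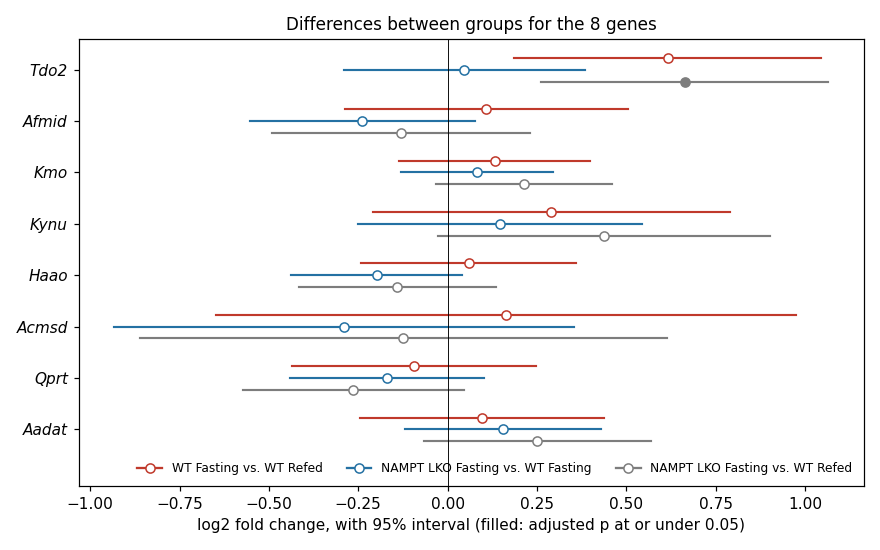
Log2 fold change of each gene with its 95% interval from edgeR's quasi-likelihood fit, in WT Fasting vs. WT Refed, NAMPT LKO Fasting vs. WT Fasting, and NAMPT LKO Fasting vs. WT Refed livers, with filled symbols for an adjusted p of 0.05 or less. Tdo2 in NAMPT LKO Fasting vs. WT Refed livers is the 1 filled point, and every interval of fasted NAMPT LKO vs. WT livers spans 0.

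The branch after Haao was described by the log2 ratio of RPKM per liver. Qprt exceeded Acmsd in all 10 livers, by 4.83-fold to 12.8-fold. The log2 ratio of Qprt to Acmsd was 3.30 and 3.06 in WT Refed, 3.19, 2.27 and 3.59 in WT Fasting, and 3.68, 2.94, 2.96, 2.83 and 2.90 in NAMPT LKO Fasting livers. Group means were 3.18 ± 0.17 (SD, n = 2), 3.02 ± 0.68 (SD, n = 3) and 3.06 ± 0.35 (SD, n = 5), closer to each other than livers of a fasted group were. Without WT Fasting 2, the mean of WT Fasting livers was 3.39. Haao exceeded Acmsd by 32.7-fold to 75.6-fold, with mean log2 ratios of 5.71 ± 0.16 in WT Refed, 5.72 ± 0.60 in WT Fasting and 5.71 ± 0.32 in NAMPT LKO Fasting livers. The ratio of transcripts is not a measure of flux through either branch.

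**Figure D4:**
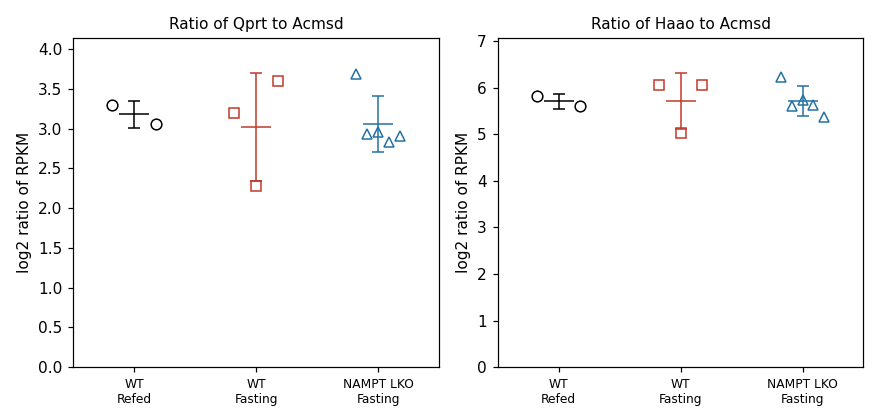
Log2 ratio of RPKM of Qprt to Acmsd (left) and Haao to Acmsd (right) in each of 10 livers, with bars for the group mean and SD. The groups overlap in both panels, and the lowest value in each is WT Fasting 2.

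Other genes that feed, parallel or follow the pathway were read from 7 lists of 30 genes, 26 of which passed the filter. Ido1, the dioxygenase of tryptophan in immune cells, Tph1, Slc6a19 and Nmnat2 did not pass it, and Ido1 was at 0 to 0.107 CPM. In WT Fasting vs. WT Refed livers 1 of the 26 rose and 1 fell, against 7.04% of tested genes called. In fasted NAMPT LKO vs. WT livers 0 were called by edgeR, against 0.00744%, and in NAMPT LKO Fasting vs. WT Refed livers 3 rose and 2 fell, against 11.2%. Cholangiocyte markers were higher in the same NAMPT LKO Fasting livers, as given above. The called genes were all among other uses of tryptophan or the factors known to act on these genes.

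Of the 3 tested genes that use tryptophan or its products otherwise, Ddc, the aromatic amino acid decarboxylase, was at 74.0 and 93.1 CPM in WT Refed, 46.6, 45.9 and 35.0 CPM in WT Fasting, and 43.9 to 47.9 CPM in NAMPT LKO Fasting livers. Ddc fell by 0.97 on the log2 scale in WT Fasting (adjusted p = 0.00374 by edgeR) and by 0.88 in NAMPT LKO Fasting livers (adjusted p = 0.00239) relative to WT Refed, calls that were lost without WT Refed 2 (adjusted p = 0.0643 and 0.0682). Wars, the cytosolic tryptophanyl-tRNA synthetase, was at 27.7 and 30.2 CPM in WT Refed, 13.6, 14.1 and 38.5 CPM in WT Fasting, and 10.1 to 13.2 CPM in NAMPT LKO Fasting livers. In fasted NAMPT LKO vs. WT livers Wars had a log2 fold change of -0.90 (SE 0.29, adjusted p = 0.798 by edgeR). All 5 NAMPT LKO Fasting livers lay below the 3 WT Fasting livers, where 3.99% of tested genes had groups without overlap. Wars was also lower in NAMPT LKO Fasting than WT Refed livers (log2 fold change -1.29, adjusted p = 0.0292 by edgeR), while WT Fasting livers straddled the WT Refed values. Its adjusted p was 0.146 without WT Refed 1, 0.223 without WT Refed 2 and from 0.0505 to 0.0574 without NAMPT LKO Fasting 1, 2, 3 or 4.

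Among factors known to act on these genes, Cebpb, a transcription factor induced by fasting signals, was at 68.8 and 62.0 CPM in WT Refed, 181, 205 and 160 CPM in WT Fasting, and 170, 160, 136, 124 and 70.2 CPM in NAMPT LKO Fasting livers. It rose by 1.48 (adjusted p = 0.0168 by edgeR) and by 1.01 (adjusted p = 0.0418) on the log2 scale relative to WT Refed, the lowest fasted value again being NAMPT LKO Fasting 5. The first call was lost without either WT Refed library (adjusted p = 0.118 and 0.182) and without WT Fasting 2 (0.0535), and the second held in 9 of 19 alternatives (adjusted p 0.000102 to 0.300). Ppargc1a, a coactivator of fasting metabolism, was at 6.38 and 7.09 CPM in WT Refed and 9.50 to 37.9 CPM in NAMPT LKO Fasting livers, where it rose by 1.76 (adjusted p = 0.0236 by edgeR), with 0.185 and 0.187 without WT Refed 1 and 2. In WT Fasting livers Ppargc1a was at 12.2, 14.4 and 17.8 CPM, all above both WT Refed livers, at a log2 fold change of 1.13 (adjusted p = 0.149 by edgeR), which passed the threshold in 4 of 19 alternatives, among them DESeq2 (0.0497), voomWithQualityWeights (0.0408) and edgeR without NAMPT LKO Fasting 4 (0.0430). Ppara, the fatty acid sensor, rose by 0.53 in NAMPT LKO Fasting relative to WT Refed livers (adjusted p = 0.0454 by edgeR). It went from 126 and 96.6 CPM to between 140 and 188 CPM, and this call held in 7 of 19 alternatives. In WT Fasting livers Ppara was at 157, 148 and 160 CPM, again all above both WT Refed livers, at a log2 fold change of 0.48 (adjusted p = 0.107 by edgeR), which passed only with voomWithQualityWeights of 19 alternatives (0.0266). Between fasted NAMPT LKO and WT livers the log2 fold changes were -0.46 for Cebpb, 0.62 for Ppargc1a and 0.05 for Ppara (adjusted p = 0.837, 0.837 and 0.948 by edgeR). Nr3c1, Hnf4a and Cebpa did not pass the threshold in any of the comparisons by edgeR. In WT Fasting vs. WT Refed livers their log2 fold changes were -0.23, -0.33 and -0.89 (adjusted p = 0.290, 0.332 and 0.117 by edgeR). For each, all 3 WT Fasting livers lay below both WT Refed livers, where 49.7% of tested genes had groups without overlap. In NAMPT LKO Fasting vs. WT Refed livers they were -0.05, -0.36 and -0.80 (adjusted p = 0.802, 0.209 and 0.0930 by edgeR).

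In the other 5 lists no gene was called in any comparison, and for each the gene with the lowest p in WT Fasting vs. WT Refed and in fasted NAMPT LKO vs. WT livers is given first. Ido2, the paralog of Ido1, had log2 fold changes of -0.41 (adjusted p = 0.210 by edgeR) in WT Fasting vs. WT Refed and 0.11 in fasted NAMPT LKO vs. WT livers. Among kynurenine transaminases the values were -0.37 for Kyat1 and -0.06 for Got2, respectively. Among the steps from the ACMSD product towards acetyl-CoA they were 0.35 for Dhtkd1 and -0.09 for Gcdh. The next list held steps from nicotinic acid mononucleotide to NAD, shared with the Preiss-Handler route, and Naprt, which makes that mononucleotide from nicotinic acid. In it Nmnat1 stood at 22.8 and 20.3 CPM in WT Refed and 15.9, 16.5 and 13.7 CPM in WT Fasting livers (log2 fold change -0.49, adjusted p = 0.0856 by edgeR). Naprt had a log2 fold change of -0.26 in fasted NAMPT LKO vs. WT livers, or -0.13 without NAMPT LKO Fasting 5 and -0.16 without WT Fasting 3. Nmnat1 passed the threshold in 4 of 19 alternatives, among them DESeq2 (adjusted p = 0.0365) and edgeR without NAMPT LKO Fasting 5 (0.0389). Among transporters of tryptophan and their partners the values were 0.37 for Slc7a5 and -0.26 for Slc3a2. In NAMPT LKO Fasting vs. WT Refed livers the genes with the lowest p of these lists were Ido2 at -0.31, Kyat1 at -0.44, Aldh8a1 at 0.40, Nmnat1 at -0.44 and Slc36a4 at 0.43, with adjusted p of 0.0678 for Nmnat1 and 0.204 to 0.278 for the others by edgeR. Of these, Nmnat1 passed the threshold in 5 of 19 alternatives, including edgeR without NAMPT LKO Fasting 3 (adjusted p = 0.0497) and without NAMPT LKO Fasting 5 (0.0488), and Aldh8a1 in 1, voomWithQualityWeights (0.0478).

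The genes whose log2 CPM over the 10 livers was most like that of each member were found by Pearson's r as a description, over the 9106 genes that averaged 5 CPM or more. For Tdo2 they were Pts, a tetrahydrobiopterin synthase (r = 0.97), Msh3 (0.95) and Tut4 (0.95), and for Afmid Sema4g (0.97), Ranbp3 (0.96) and Tfeb (0.96). For Kmo they were Washc2, Fbxo3 and Met (0.94 each), and for Kynu Ceacam1 (0.97), Mrtfb and Cyp2c39 (0.96 each). For Haao they were Masp2, D2hgdh (0.91 each) and Dap3 (0.90), and for Acmsd Mterf3 (0.91), Atp1b1 (0.86) and Dmgdh (0.85). For Qprt they were Mtln, Tmem101 (0.92 each) and Efhd2 (0.89), and for Aadat Exoc6 (0.96), Nudt21 (0.96) and Nom1 (0.95). No member was among the genes most like another. Without NAMPT LKO Fasting 5, the library with the strongest trend with GC content, 6 of the 24 genes stayed among the 3 most like their member. The members themselves did not form 1 pattern: of 28 pairs 16 had a positive r, 10 above 0.5, and the highest was Kmo with Kynu (r = 0.86, or 0.76 without NAMPT LKO Fasting 5).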

How the data were processed

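Poly-A-selected liver RNA of 10 mice was sequenced as single reads of 50 bases. Alignment was by STAR against GRCm38, and for each Ensembl gene the authors deposited the count of unambiguous, uniquely aligned reads from featureCounts. The submitters' processing notes name STAR 2.5.1a and featureCounts 1.4.6-p5, and the study's methods name other versions. The authors also deposited CPM (counts scaled by the library total) and RPKM (CPM per kilobase of exon). The deposited CPM were recomputed from the counts and matched. Strand use in counting is not given in the sources used here.

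From the counts, genes that exceeded 1 CPM in 1 or more libraries were kept, 355 rRNA genes were left out, and the TMM-scaled counts entered the quasi-likelihood test of edgeR 4.0.16 in R 4.3.3, with all 10 libraries in one fit, one mean per group and no covariate. Intervals are 95%. RPKM were used only to compare genes. Total counts of 30603080 to 43434139 set the depth, and the number of livers limits the precision. Groups and replicate numbers were taken from the sample labels, those of WT Refed livers being given in listed order.

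The members and the gene lists were chosen with earlier results of these data known. The text names the 8 members, Nampt, genes of the pathway lists that were called or had the lowest p of their list, and the 3 genes most like each member by Pearson's r of log2(CPM + 0.5). Alternatives were DESeq2 1.42.0, limma 3.58.1 (voomWithQualityWeights), the exact test of edgeR, other scalings and filters, fits of only the groups compared, fits with a replicate block, and fits without each library in turn. Removal of each library's loess trend with GC content (span 0.5) and the count at an unadjusted p under 0.05 were chosen after seeing the data. A gene of the lists and a flank are not reported here. Flanks came from the RefSeq table of GRCm38.p6, and exon overlaps from the exon coordinates deposited with the counts. Gene types and GC content came from GENCODE annotation of GRCm38. No pair of replicate libraries agreed within sampling noise. Marker lists of 10 cell types were summed. Hepatocyte markers summed to 67230 to 117700 CPM, endothelial markers to 188 to 245 CPM, stellate and fibroblast markers to 199 to 307 CPM, erythroid markers to 328 to 1384 CPM, and lymphocyte, neutrophil, adipocyte and pancreatic acinar markers to at most 3.03 CPM.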

Additional observations from a re-analysis of the deposited data

Results flagged for a closer look

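In the NAMPT LKO Fasting group, 48 values were examined for 1 liver far from the other 4, by its distance to the next liver over the whole range of the group, and 5 passed the limit, where chance at 1 in 20 gives 2.4. No single member was among them. The log2 ratio of Qprt to Acmsd in RPKM was 3.68 in NAMPT LKO Fasting 1 and 2.83 to 2.96 in the others, the liver with the lowest Acmsd value. Slc3a2, a transporter partner, was at 27.8 CPM in NAMPT LKO Fasting 5 against 40.3 to 41.2 CPM. Slc16a10, a transporter of aromatic amino acids, was at 86.7 CPM in NAMPT LKO Fasting 1 against 104 to 108 CPM. Nr3c1, the glucocorticoid receptor, was at 79.0 CPM in NAMPT LKO Fasting 4 against 64.0 to 67.3 CPM. The share of counts on mitochondrial genes was 21.1% in NAMPT LKO Fasting 5 against 10.4% to 12.9%, and its part in the values of the members was not tested.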

How the results depend on the processing

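Of 472 member fold changes under alternatives, 441 kept their direction and their side of the threshold, 6 passed it newly, 7 lost it and 18 turned, none of which was past the threshold. Of 529 for the other named genes, 475 kept both, 15 passed newly, 37 lost the call and 2 turned, and Nampt was called in 19 of 21. In WT Fasting vs. WT Refed livers the 946 genes called became 1646 with DESeq2, 1627 with only the 2 groups, 3331 with voomWithQualityWeights and 1474 with the GC trend removed, and the members called were 1 (Tdo2) in each of these and at an unadjusted p. Leaving out 1 library gave 106 (without WT Refed 2) to 2231 genes (without NAMPT LKO Fasting 5) and 0 to 1 members. In fasted NAMPT LKO vs. WT livers the 1 gene called became 24 with DESeq2, 24 with the exact test of edgeR, 17 without the filter, 3 with filterByExpr, 3 with the GC trend removed and 2 by library size alone, and 1 to 2 without 1 library, with 0 members in every case. In NAMPT LKO Fasting vs. WT Refed livers voomWithQualityWeights gave 4281 genes and 2 members, the fit of the 2 groups 0 members, and leaving out 1 library 207 to 2835 genes and 0 to 1 members. The share of called genes that were higher moved from 38.1% to 26.4% (WT Fasting vs. WT Refed) and from 41.4% to 26.3% (NAMPT LKO Fasting vs. WT Refed) by library size alone. The cause was not tested.

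Signs turned in WT Fasting vs. WT Refed livers for Haao by library size alone (-0.0019) and, without 1 library, for Afmid (-0.0055 to 0.22), Haao (-0.017 to 0.13), Acmsd (-0.38 to 0.40), Qprt (-0.22 to 0.051) and Aadat (-0.033 to 0.20). In fasted NAMPT LKO vs. WT livers they turned for Tdo2 (-0.078) and Kynu (-0.037) with voomWithQualityWeights, for Tdo2 (-0.10), Kmo (-0.0008) and Got2 (0.017) with the GC trend removed, and without 1 library for Tdo2 (-0.052 to 0.15), Kynu (-0.022 to 0.23), Acmsd (-0.52 to 0.25) and Ido2 (-0.0078 to 0.22). For NAMPT LKO Fasting vs. WT Refed livers, Acmsd ran from -0.26 to 0.035. With Spearman's rho 5 of the 24 most alike genes stayed, and 6 without NAMPT LKO Fasting 5.

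Replicate numbers are shared by different mice, and the labels do not say whether they mark a pairing or a batch. Same-numbered fasted livers deviated together weakly (r = 0.08, 0.16 and 0.10), although each correlated best with its own number. Over libraries 1 to 3 the replicate block gave 0 genes and 0 members, Tdo2 at -0.10 and Kynu at -0.038, and the same libraries without the block gave 0 genes, Tdo2 at -0.10 and Kynu at -0.029. WT Refed labels carry no number.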
